A study of Mus musculus with 21 samples.

Results

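The unfolded protein response genes described here are sensors and transcription factors of endoplasmic reticulum (ER) stress, chosen by name: *Ern1*, *Xbp1*, *Atf6*, *Atf6b*, *Eif2ak3*, *Atf4*, *Atf5*, *Atf3*, *Ddit3* and *Creb3l2*. The choice was made with earlier results of these data known. All 10 were found among the 35266 genes of the count table, and all 10 were among the 16513 genes that passed the filter on low counts and were tested. They were measured by RNA-Seq in AGRP and POMC neurons, the hunger-promoting and satiety-promoting cell types of the arcuate nucleus of the hypothalamus. AGRP neurons came from NPY-hrGFP and POMC neurons from Pomc-GFP male mice on the C57BL/6J background, aged 46 to 56 days, and fluorescent cells were picked by hand after pronase digestion. Each library held the cells of 1 mouse (44 to 214 cells), with 5 fed and 6 food-deprived (FD) mice for AGRP neurons and 5 fed and 5 FD mice for POMC neurons. All mice were moved alone to a fresh cage for the last 24 hours, in which FD mice had only water and fed mice could eat freely. A cell entered a library through its fluorescence, so the groups are reporter-positive cells of one line each, and cell type cannot be told apart from mouse line.

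The unfolded protein response adjusts the folding capacity of the ER to its load. Its sensors sit in the ER membrane: IRE1, encoded by *Ern1*, splices the *Xbp1* messenger into the form that encodes an active transcription factor; PERK, encoded by *Eif2ak3*, phosphorylates eIF2alpha and so favours translation of ATF4 while general translation falls; ATF6 and its relative ATF6B are cut by Golgi proteases to release transcription factors. Downstream of PERK lie ATF4, ATF5, ATF3 and CHOP (the product of *Ddit3*), and CREB3L2 is a membrane-bound factor of the OASIS family that is processed like ATF6. The counts per gene used here measure messenger level only and do not separate the spliced and unspliced forms of *Xbp1*. Splicing of *Xbp1*, phosphorylation and protein cleavage were not analysed here.

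Libraries held 9822298 to 37663979 counts on genes (median 19189780). Values are given as normalized CPM, which are counts per 1e6 of the TMM-scaled library size, and the floor of 3 counts lay between 0.0911 and 0.294 normalized CPM and covers counting error alone. *Agrp* averaged 3431 ± 1748 normalized CPM in FD AGRP neurons (SD, n = 6) and 11.2 ± 6.20 in FD POMC neurons (n = 5), while *Pomc* averaged 5343 ± 1983 in fed POMC neurons (n = 5) and 12.5 ± 7.28 in fed AGRP neurons (n = 5), as the labels have it. Summed over 18 marker genes of astrocytes, oligodendrocytes, microglia, endothelial cells and ependymal cells or tanycytes, the level was 36.3 to 54.7 TPM in fed AGRP, 25.6 to 46.1 TPM in FD AGRP, 20.5 to 36.9 TPM in fed POMC and 25.6 to 53.9 TPM in FD POMC libraries. Most of this was from 4 oligodendrocyte markers, with median sums of 35.7 (fed AGRP), 31.8 (FD AGRP), 27.3 (fed POMC) and 46.0 TPM (FD POMC). The medians over all 18 were 44.1, 38.4, 33.2 and 47.3 TPM in the same order. Of these 18 markers, 13 averaged under 1 TPM in FD AGRP neurons, 13 in fed AGRP, 13 in fed POMC and 15 in FD POMC neurons.

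In AGRP neurons 5 of the 10 genes rose with food deprivation and none fell: *Ern1*, *Atf6*, *Atf4*, *Atf3* and *Creb3l2*, by 2.07-fold (*Atf6*) to 10.1-fold (*Atf3*). These calls were made at q under 0.05, where q is the Benjamini-Hochberg adjusted p of the edgeR quasi-likelihood test over all tested genes, at which 5.87% of all tested genes were higher and 4.43% lower in FD AGRP neurons. The FD libraries lay above every fed library for 5 of the genes (*Ern1*, *Atf6*, *Atf4*, *Atf5* and *Creb3l2*), against 4.08% of all tested genes. Over the 10 genes the median log2 fold change was 1.09, beside −0.023 over all tested genes. Because the genes were chosen with earlier results of these data known, these shares and medians are a description and not a test. Scaling by the ERCC spike-in counts kept all 5 higher in FD mice, with 0 of the 10 genes past the threshold. In bulk libraries of sorted cells, fewer cells with a transcript and less transcript per cell cannot be told apart. In POMC neurons 0 of the 10 genes passed the test by edgeR, limma-voom or DESeq2. There 2 had an unadjusted edgeR p under 0.05 (*Xbp1* and *Atf6b*, both lower in FD). At q under 0.05 by edgeR, 0.182% of all tested genes were higher and 0.194% lower in FD POMC neurons. The share of all tested genes at an unadjusted p under 0.05 was not taken, here or below.

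**Figure D1:**
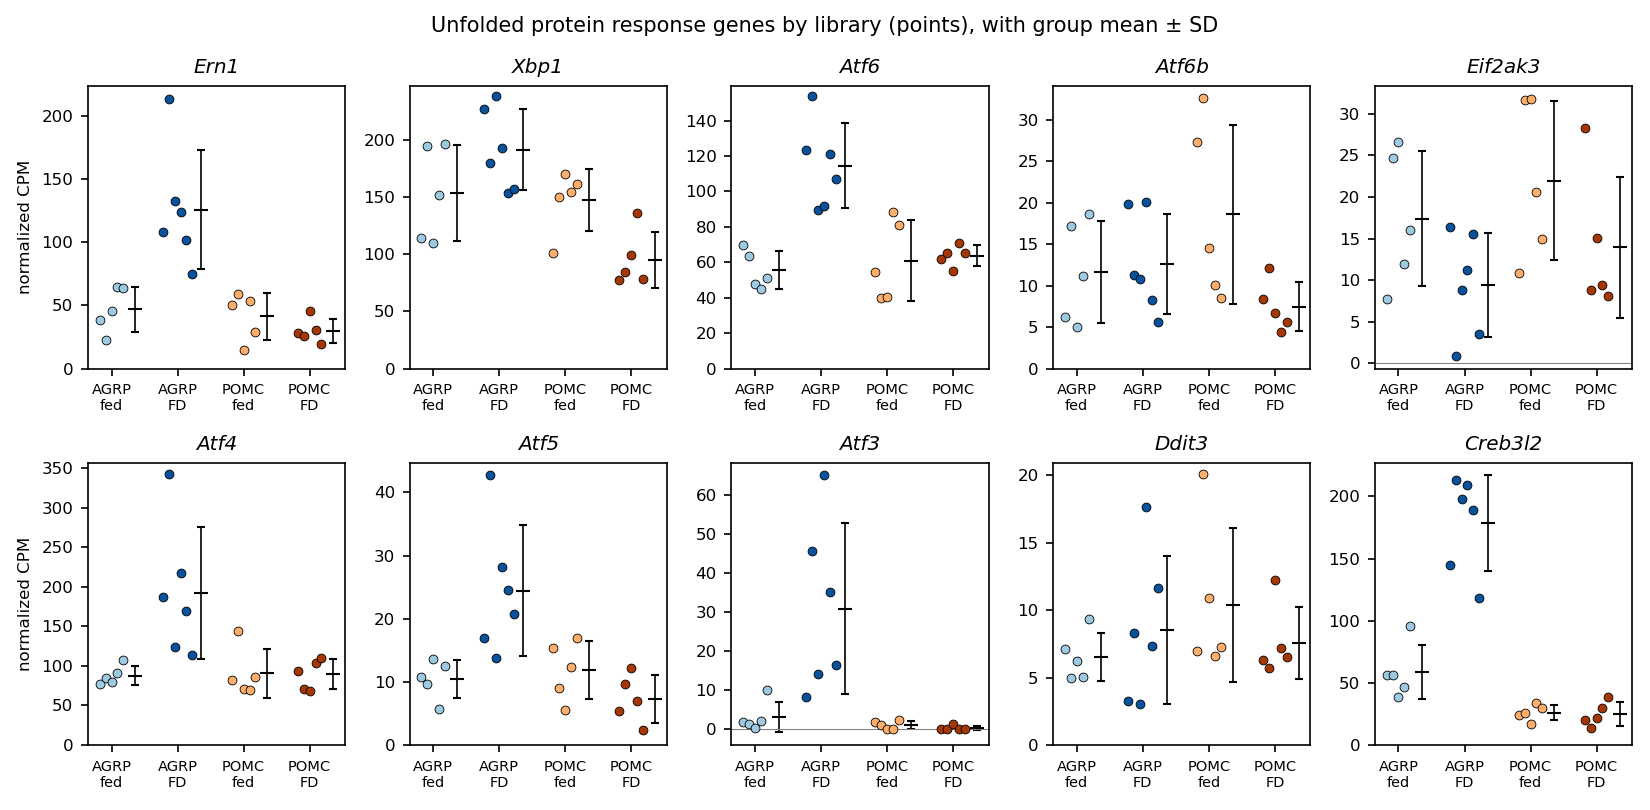
Normalized CPM (y axis, linear) of each of the 10 genes in every library, in 4 groups along the x axis, with 1 point per library and the group mean ± SD beside the points. FD AGRP libraries sit above all fed AGRP libraries for *Ern1*, *Atf6*, *Atf4*, *Atf5* and *Creb3l2*, and *Atf3* is near 0 in both POMC groups.

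Because several of these genes are thought to act on one another's promoters, the stretch of 250 bases before the RefSeq transcription start is shown for the 4 genes that rose in FD AGRP neurons and have one. RefSeq does not always start a gene where the files do: its start of *Atf3* lies 34706 bases inside the gene of the files, so that the whole *Atf3* stretch is within that gene, and its start of *Ern1* lies 40 bases inside. RefSeq windows on GRCm38.p6 (250 bases before to 50 bases after each start) were at hand for 9 of the 10 genes, *Atf6* being the one without. They were searched on both strands for the ER stress response element (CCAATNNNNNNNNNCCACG), the unfolded protein response element (TGACGTGG), the C/EBP-ATF response element that ATF4 is known to bind (TGATGCAA) and the cAMP response element (TGACGTCA, which shares its first 6 letters with the unfolded protein response element). The C/EBP-ATF response element occurred in the window of *Atf3* and in no other of the 9 genes, and in 0.895% of all 32851 windows. None of the 9 genes held the other 3 motifs, which occurred in 0.119%, 0.676% and 1.79% of all windows, respectively. A match is a description of letters and not a measured site. The *Ern1* stretch lies at chr11:106487797-106488046, that of *Atf3* at chr1:191183334-191183583, that of *Atf4* at chr15:80254934-80255183 and that of *Creb3l2* at chr6:37442149-37442398, with *Atf4* on the plus and the others on the minus strand. They are written 5′ to 3′ on the strand of the gene, with the C/EBP-ATF response element of *Atf3* in capitals, on the opposite strand at −110 to −103 from the RefSeq start.
Ern1: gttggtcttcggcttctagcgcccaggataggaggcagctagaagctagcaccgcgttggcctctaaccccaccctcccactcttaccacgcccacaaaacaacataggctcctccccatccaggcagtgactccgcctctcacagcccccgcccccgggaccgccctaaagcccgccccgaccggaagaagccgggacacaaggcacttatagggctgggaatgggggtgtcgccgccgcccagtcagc
Atf3: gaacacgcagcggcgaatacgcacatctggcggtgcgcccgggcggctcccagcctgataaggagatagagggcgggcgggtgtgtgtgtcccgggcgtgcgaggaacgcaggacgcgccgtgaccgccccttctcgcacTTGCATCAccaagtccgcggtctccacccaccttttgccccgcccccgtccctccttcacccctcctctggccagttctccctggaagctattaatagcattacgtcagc
Atf4: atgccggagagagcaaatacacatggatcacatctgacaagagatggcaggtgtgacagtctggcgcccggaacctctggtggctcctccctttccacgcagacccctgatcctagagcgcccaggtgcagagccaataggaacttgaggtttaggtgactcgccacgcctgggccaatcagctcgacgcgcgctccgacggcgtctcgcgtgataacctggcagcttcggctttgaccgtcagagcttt
Creb3l2: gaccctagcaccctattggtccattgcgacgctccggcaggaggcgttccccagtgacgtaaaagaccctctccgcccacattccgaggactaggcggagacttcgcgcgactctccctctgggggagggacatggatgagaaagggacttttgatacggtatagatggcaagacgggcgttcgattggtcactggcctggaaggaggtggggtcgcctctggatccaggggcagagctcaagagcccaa

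*Ern1* (ENSMUSG00000020715, chromosome 11, 106394650 to 106487836 on mm10, minus strand) encodes the IRE1 kinase and RNase. Its normalized CPM in fed AGRP replicates 1 to 5 were 38.7, 22.8, 45.3, 64.4 and 63.8. The FD AGRP libraries ran from 75.3 to 214 normalized CPM with a median of 116, and all 6 exceeded the highest fed library. FD replicate 2, at 214, was the highest of all libraries. On the log2 scale the rise was 1.42 (standard error 0.32, q = 0.00381), and without FD replicate 2 it was 1.21. In POMC neurons the fed libraries held 50.7, 59.2, 14.4, 53.4 and 28.8 normalized CPM of *Ern1*. The FD POMC libraries held 27.9, 26.0, 45.6, 30.7 and 19.3. The POMC groups overlapped, with a log2 fold change of −0.47 (95% interval −1.14 to 0.21, q = 0.619).

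*Xbp1* (ENSMUSG00000020484, chromosome 11, 5520659 to 5525893, plus strand) is the substrate of the IRE1 RNase, and the counts sum its spliced and unspliced forms. Its normalized CPM were 114, 195, 110.2, 152 and 197 in the fed AGRP libraries. FD AGRP libraries ran from 154 to 239 normalized CPM with a median of 186, and 2 of the 6 exceeded the highest fed library. In AGRP neurons the log2 fold change of *Xbp1* was 0.32 (95% interval −0.076 to 0.71, q = 0.358). Fed POMC libraries held 101, 150.2, 171, 155 and 162 normalized CPM. FD POMC libraries held 77.5, 84.2, 99.6, 136 and 78.8, so that 4 of the 5 lay below every fed library. The log2 fold change in POMC neurons was −0.63 (95% interval −1.05 to −0.22), which did not pass the test (q = 0.154). Among the libraries that received 1 µl of spike-in, the log2 ratio of the POMC means was −0.90 (n = 3 and 3).

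*Atf6* (ENSMUSG00000026663, chromosome 1, 170704674 to 170867771, minus strand) encodes the sensor that is itself the precursor of a transcription factor. Among fed AGRP libraries it stood at 69.8, 63.6, 47.6, 45.2 and 51.0 normalized CPM. FD AGRP libraries ran from 89.6 to 154 normalized CPM with a median of 114, without overlap with the fed libraries. *Atf6* rose by 1.05 log2 units in AGRP neurons (standard error 0.22, q = 0.00178). Fed POMC libraries held 54.8, 39.6, 40.5, 88.3 and 81.3 normalized CPM and FD POMC libraries 61.7, 65.3, 55.2, 71.2 and 65.4. All FD POMC values lay inside the fed range, and the log2 fold change was 0.066 (95% interval −0.39 to 0.53, q = 0.954).

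*Atf6b* (ENSMUSG00000015461, chromosome 17, 34647146 to 34655074, plus strand) encodes the paralog of ATF6. It was low, with fed AGRP libraries at 6.26, 17.2, 5.05, 11.2 and 18.6 normalized CPM, and FD AGRP libraries at 5.58 to 20.05 with a median of 11.1. The AGRP groups overlapped almost entirely, with a log2 fold change of 0.12 (95% interval −0.82 to 1.06, q = 0.925). In POMC neurons the fed libraries held 27.3, 32.7, 14.6, 10.0 and 8.47 normalized CPM and the FD libraries 8.41, 12.1, 6.72, 4.42 and 5.65. On the log2 scale the difference was −1.32 (95% interval −2.31 to −0.32) and did not pass the test (q = 0.228). The 2 highest fed POMC libraries were replicates 1 and 2, for which the spike-in volume followed the cell number, as in no FD POMC library. These 2 mice were aged 51 days and the other POMC mice 54 to 56 days. Among the libraries that received 1 µl of spike-in, the log2 ratio of the POMC means was −0.28 (n = 3 and 3).

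*Eif2ak3* (ENSMUSG00000031668, chromosome 6, 70844515 to 70905245, plus strand) encodes PERK. In AGRP neurons the fed libraries held 7.73, 24.7, 26.6, 11.9 and 16.0 normalized CPM. FD AGRP libraries ran from 0.920 to 16.4 with a median of 9.99, and the lowest was FD replicate 2, the library with the fewest sorted cells of its group (50). The log2 fold change of *Eif2ak3* was −0.89 (95% interval −1.93 to 0.16, q = 0.330) in AGRP neurons and −0.65 (95% interval −1.75 to 0.45, q = 0.690) in POMC neurons. In POMC neurons the fed libraries held 10.8 to 31.8 and the FD libraries 8.12 to 28.3 normalized CPM. Reads were counted without strand, and 485 exonic bases of *Eif2ak3* are shared with the antisense gene *Gm43292*.

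*Atf4* (ENSMUSG00000042406, chromosome 15, 80255184 to 80257540, plus strand) encodes the factor whose translation increases when eIF2alpha is phosphorylated. The 5 fed AGRP libraries held 76.6, 84.9, 79.3, 91.5 and 107 normalized CPM, a narrow range. The FD AGRP libraries ran from 114 to 343 with a median of 178, and every one of the 6 lay above the fed range. *Atf4* rose by 1.13 on the log2 scale (standard error 0.24, q = 0.00194), and 0.89 without FD replicate 2, the library at 343. Fed POMC libraries held 82.4, 144, 71.0, 69.2 and 86.3 normalized CPM. FD POMC libraries held 93.7, 71.1, 68.1, 103 and 110.4. The POMC groups overlapped, with a log2 fold change of −0.021 (95% interval −0.52 to 0.48, q = 0.989).

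*Atf5* (ENSMUSG00000038539, chromosome 7, 44812257 to 44816658, minus strand) encodes a relative of ATF4 that is likewise under translational control. Fed AGRP libraries held 10.8, 9.74, 13.6, 5.64 and 12.5 normalized CPM, and FD AGRP libraries 13.8 to 42.7 with a median of 22.7. The AGRP groups did not overlap, the nearest libraries being 13.6 and 13.8. Its log2 fold change was 1.23 (95% interval 0.35 to 2.1) at a q of 0.0645, and q was 0.0383 with limma-voom, 0.0235 with DESeq2 and 0.0348 in an edgeR fit of the AGRP groups alone (range over the 9 alternatives 0.0235 to 1). In POMC neurons the fed libraries held 15.3, 9.10, 5.62, 12.3 and 16.9 normalized CPM and the FD libraries 5.32, 9.64, 12.2, 6.97 and 2.32. In POMC neurons the fold change was −0.70 on the log2 scale (95% interval −1.59 to 0.20, q = 0.559). *Atf5* shares 82 exonic bases with *Nup62* and *Il4i1*, which lie antisense to it.

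*Atf3* (ENSMUSG00000026628, chromosome 1, 191170296 to 191218039, minus strand) encodes a stress-induced factor of the ATF/CREB family that is a known target of ATF4 and is also known to be induced by injury and cell handling. Fed AGRP libraries held 39, 23, 5, 41 and 186 counts, or 1.78, 1.27, 0.304, 1.94 and 9.96 normalized CPM. FD AGRP libraries held 144 to 2145 counts, or 8.30 to 65.2 normalized CPM with a median of 25.9. Of the 6, 5 lay above every fed library, and FD replicate 1, at 8.30, lay below fed replicate 5. The log2 fold change of *Atf3* was 3.34 (standard error 1.03, q = 0.0353), the widest error among the 5 genes that rose. Its q reached 0.05 or more when any of 7 of the 11 AGRP libraries was left out (FD replicates 2, 4 and 5 and fed replicates 1 to 4, highest q = 0.0970), while the log2 fold change stayed between 2.97 and 4.53. In POMC neurons *Atf3* was hardly detected: fed libraries held 32, 26, 0, 0 and 44 counts and FD libraries 1, 0, 30, 0 and 1. With 4 of the 5 FD POMC libraries at or under the floor, the log2 fold change of −1.68 (95% interval −3.86 to 0.51, q = 0.567) rests on few counts.

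*Ddit3* (ENSMUSG00000025408, chromosome 10, 127290774 to 127296288, plus strand) encodes CHOP, the factor tied to cell death under lasting ER stress. Fed AGRP libraries held 7.13, 5.01, 6.27, 5.02 and 9.31 normalized CPM, and FD AGRP libraries 3.03 to 17.6 with a median of 7.84. The groups overlapped, with 2 FD libraries above and 2 below the whole fed range, and the log2 fold change was 0.38 (95% interval −0.64 to 1.41, q = 0.729). Fed POMC libraries held 6.63 to 20.1 and FD POMC libraries 5.68 to 12.3 normalized CPM, with a log2 fold change of −0.45 (95% interval −1.52 to 0.62, q = 0.810). *Ddit3* shares 68 exonic bases with genes antisense to it, *Gm4189* and *Mars*.

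*Creb3l2* (ENSMUSG00000038648, chromosome 6, 37327255 to 37442146, minus strand) encodes a factor known for its part in the secretory pathway of cells that export much protein. Fed AGRP libraries held 56.3, 56.3, 38.9, 46.7 and 95.3 normalized CPM. FD AGRP libraries ran from 118 to 213 with a median of 194, all above the fed range. At 1.61 on the log2 scale (standard error 0.26, q = 9.22e-05) its change was known most precisely, relative to its size, among the 10 genes. Fed POMC libraries held 24.0, 25.4, 17.1, 33.4 and 29.4 normalized CPM and FD POMC libraries 20.1, 13.5, 21.5, 29.8 and 38.8. The POMC log2 fold change was −0.065 (95% interval −0.60 to 0.47, q = 0.963).

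**Figure D2:**
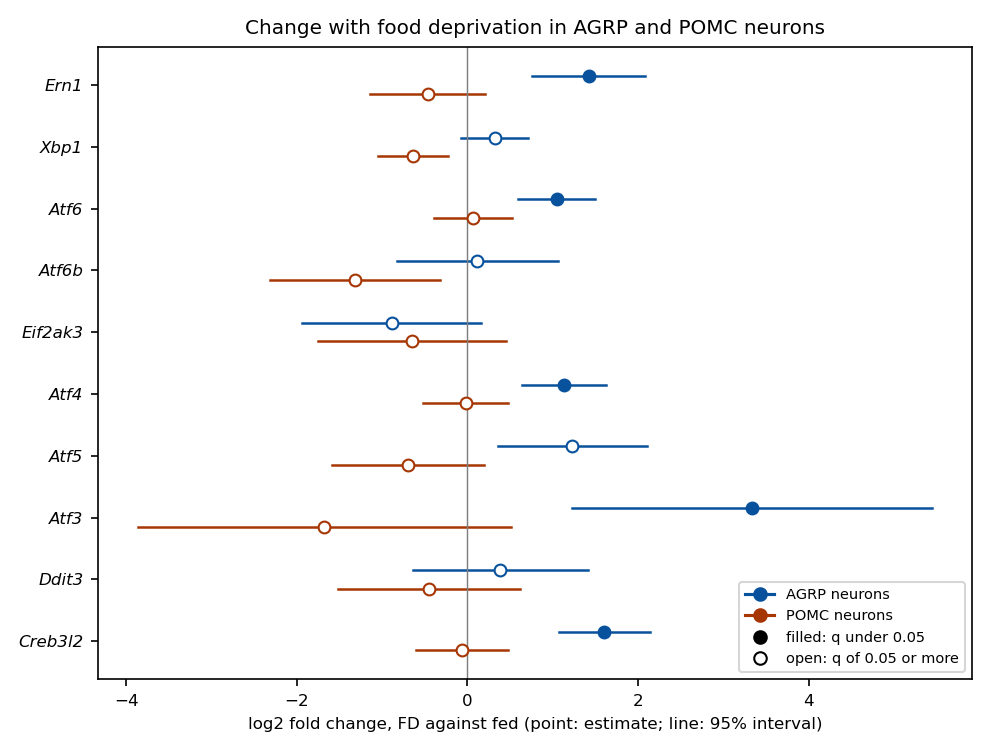
Log2 fold change of FD against fed mice (x axis) for the 10 genes (y axis) in AGRP neurons (blue) and POMC neurons (brown), with 95% intervals from the edgeR fit as lines and filled points where q was under 0.05. Filled points are the 5 genes that rose in AGRP neurons, and no POMC point is filled.

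Spike-in RNA was added in 3 ways, and each way holds both feeding conditions among the AGRP libraries: 1 FD and 1 fed library at 1 µl, 2 and 2 at 10 µl, and 3 and 2 with a volume in proportion to the cells sorted. FD replicate 2 received 1 µl for 50 cells, which matches both the first and the last way, and it was counted with the last. AGRP mice of the last way were 46 to 47 days old and the others 51 to 55, so spike-in volume and age cannot be told apart there. Within these sets, in that order, the log2 ratio of the AGRP means was 1.39, 1.55 and 1.24 for *Ern1*. For *Creb3l2* it was 1.75, 1.78 and 1.38. *Atf4* gave 1.14, 1.01 and 1.14, and *Atf6* 0.80, 0.84 and 1.35. For *Atf3* the ratio was 4.30, 5.70 and 1.93, the lowest being in the set that holds fed replicate 5. All 5 genes were higher in FD mice within every set. For *Ern1*, *Atf6*, *Atf4* and *Creb3l2* any split of the libraries had to give this direction, because all FD libraries lay above all fed ones. Only the sizes of their ratios are informative. With FD replicate 2 counted among the 1 µl libraries instead, the ratios at 1 µl and with the proportional volume became 2.03 and 0.91 for *Ern1*, 1.74 and 0.65 for *Atf4*, 0.98 and 1.15 for *Atf6*, 1.84 and 1.27 for *Creb3l2* and 4.51 and 0.91 for *Atf3*, all still above 0. In POMC neurons 10 µl went only to FD mice and the proportional volume only to fed mice, so that volume and feeding cannot be told apart outside the 1 µl libraries.

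The sorting procedure can itself induce immediate early genes, some of which neurons also switch on when active, and 14 such genes were followed beside the ER stress genes. Their summed level was 502 to 1155 normalized CPM in fed AGRP and 1221 to 2861 in FD AGRP libraries, without overlap. In POMC libraries it was 638 to 871 in fed and 766 to 949 in FD mice. Of the 14 genes, 5 rose in FD AGRP neurons, where 5.87% of all tested genes were higher. Among the 5 were *Egr1* (log2 fold change 1.72, q = 4.71e-06), *Fos* (1.36, q = 0.0016) and *Klf6* (1.32, q = 0.000204). With ERCC scaling 0 passed. In POMC neurons 0 passed the edgeR or limma-voom test, 1 had an edgeR p under 0.05 and 1 passed by DESeq2. DESeq2 called 382 of all tested genes there. The part of this shift in the level of the ER stress genes was not tested.

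Fed AGRP and fed POMC neurons differed in 1 of the 10 genes, where the question is which genes the cell types express unequally without deprivation. *Creb3l2* was higher in fed AGRP neurons, at 58.7 ± 21.7 normalized CPM (SD, n = 5) against 25.9 ± 6.12 (n = 5), or 1.18 on the log2 scale (standard error 0.27, q = 0.00342). All 5 fed AGRP libraries exceeded the highest fed POMC library in *Creb3l2*. Among all tested genes 3.33% were higher and 4.24% lower in fed AGRP neurons at q under 0.05, and 4.38% lay wholly above the fed POMC libraries. With ERCC scaling the q of *Creb3l2* was 0.767. The other 9 genes had log2 fold changes of −0.67 (*Atf6b*) to 1.62 (*Atf3*, 95% interval −0.45 to 3.68) and none passed the test.

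After food deprivation 7 of the 10 genes were higher in AGRP than in POMC neurons, and for all 7 the libraries did not overlap. Among all tested genes 9.28% were higher and 9.27% lower at q under 0.05, and 5.94% lay wholly above the FD POMC libraries. With ERCC scaling 4 of the 10 passed, beside 1117 of all tested genes. That scaling moved the median log2 fold change over all tested genes to 1.10. *Creb3l2* differed most reliably, with 179 ± 38.4 normalized CPM in FD AGRP (SD, n = 6) and 24.8 ± 9.77 in FD POMC neurons (n = 5), or 2.85 on the log2 scale (standard error 0.28, q = 3.9e-09). For *Ern1*, FD AGRP neurons averaged 126 ± 47.5 (SD, n = 6) and FD POMC neurons 29.9 ± 9.73 normalized CPM (n = 5), or 2.08 on the log2 scale (standard error 0.33, q = 2.45e-05). *Xbp1*, which had not passed the test within either cell type, averaged 192 ± 35.4 (SD, n = 6) against 95.2 ± 24.4 normalized CPM (n = 5), or 1.01 on the log2 scale (standard error 0.20, q = 0.000312). Of the factors downstream of PERK, *Atf4* was higher in FD AGRP neurons by 1.11 log2 units (q = 0.00106) and *Atf5* by 1.74 (q = 0.00429), while *Ddit3* (0.17, q = 0.867) did not pass the test. *Atf6* was higher by 0.85 log2 units (q = 0.00584). *Atf3* averaged 30.8 ± 22.0 normalized CPM in FD AGRP (SD, n = 6) and 0.279 ± 0.554 in FD POMC neurons (n = 5), a fitted difference of 6.63 on the log2 scale (standard error 1.24, q = 0.000201). With 4 of the 5 FD POMC libraries at or under the floor of 3 counts, this *Atf3* value ran from 6.28 to 9.66 when 1 library was left out, the highest being without FD POMC replicate 3. *Atf6b* (0.76, q = 0.289) and *Eif2ak3* (−0.57, q = 0.5) did not pass the test.

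Whether deprivation acted differently in AGRP and POMC neurons was tested as the interaction, the AGRP change less the POMC change. It passed the test for 5 of the 10 genes, each with the more positive change in AGRP neurons, where 4.08% of all tested genes had such a difference and 2.63% the opposite one. The difference was 1.67 log2 units for *Creb3l2* (standard error 0.37, q = 0.00481) and 1.89 for *Ern1* (standard error 0.46, q = 0.011). For *Xbp1* it was 0.95 (standard error 0.28, q = 0.0347), made up of 0.32 in AGRP and −0.63 in POMC neurons. For *Atf4* it was 1.15 (standard error 0.34, q = 0.0368) and for *Atf3* 5.01 (standard error 1.48, q = 0.0356). *Atf5* (1.92, q = 0.0531) and *Atf6* (0.98, q = 0.0547) lay just outside the threshold. *Atf6b* (1.43, 95% interval 0.063 to 2.80, q = 0.225), *Ddit3* (0.83, 95% interval −0.65 to 2.31) and *Eif2ak3* (−0.23, 95% interval −1.75 to 1.29) did not pass. The calls of *Ern1* and *Creb3l2* held whichever of the 21 libraries was left out, those of *Atf4* in 12 of these fits, *Xbp1* in 10 and *Atf3* in 8. The *Atf3* difference ran from 4.46 to 8.05 in these fits, the highest being without FD POMC replicate 3, the library with 30 counts. The interaction of *Atf3* had q = 0.129 with limma-voom, that of *Atf4* had q = 0.070 with the spike-in set as a block (0.0595 with FD AGRP replicate 2 in the 1 µl set), and with ERCC scaling 0 of the 10 genes passed. The comparisons of FD and fed mice share their libraries with those between cell types, so these results are not independent of one another.

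Levels of different genes were compared in the authors' TPM, which divide counts by exon length. *Xbp1* and *Atf4* stood well above the other 8 genes in every group. In fed AGRP neurons *Xbp1* averaged 224 ± 53.9 TPM and *Atf4* 179 ± 23.6 TPM (SD, n = 5), *Xbp1* being higher in all 5 libraries. In FD AGRP neurons *Atf4* averaged 325 ± 123 TPM and *Xbp1* 239 ± 56.3 TPM (SD, n = 6), *Atf4* being higher in 5 of the 6. *Creb3l2* took the third place in FD AGRP neurons at 73.8 ± 11.8 TPM (SD, n = 6), above *Atf6* in all 6 libraries. Below it *Atf6* (46.9 ± 10.5 TPM), *Ern1* (45.1 ± 14.8 TPM), *Atf3* (40.2 ± 25.3 TPM) and *Atf5* (35.6 ± 12.8 TPM) overlapped (SD, n = 6). The lowest place in FD AGRP neurons was that of *Eif2ak3*, at 5.86 ± 4.15 TPM (SD, n = 6).

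In fed AGRP neurons the genes from *Creb3l2* (29.1 ± 10.5 TPM, SD, n = 5) through *Atf6*, *Ddit3*, *Ern1*, *Atf5* and *Atf6b* down to *Eif2ak3* (12.5 ± 5.65 TPM) formed a row in which no neighbour stood above the next in all 5 libraries. *Atf3* was lowest at 4.95 ± 6.31 TPM (SD, n = 5). In fed POMC neurons *Xbp1* (194 ± 50.4 TPM) and *Atf4* (160 ± 45.6 TPM) overlapped, and *Creb3l2* came ninth of 10 at 11.3 ± 3.20 TPM (SD, n = 5). In FD POMC neurons *Atf4* averaged 174 ± 36.7 TPM and *Xbp1* 134 ± 35.4 TPM (SD, n = 5), *Atf4* being higher in 4 of the 5 libraries. *Atf3* was last in both POMC groups, at 1.40 ± 1.51 TPM in fed and 0.433 ± 0.860 TPM in FD mice (SD, n = 5).

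**Figure D3:**
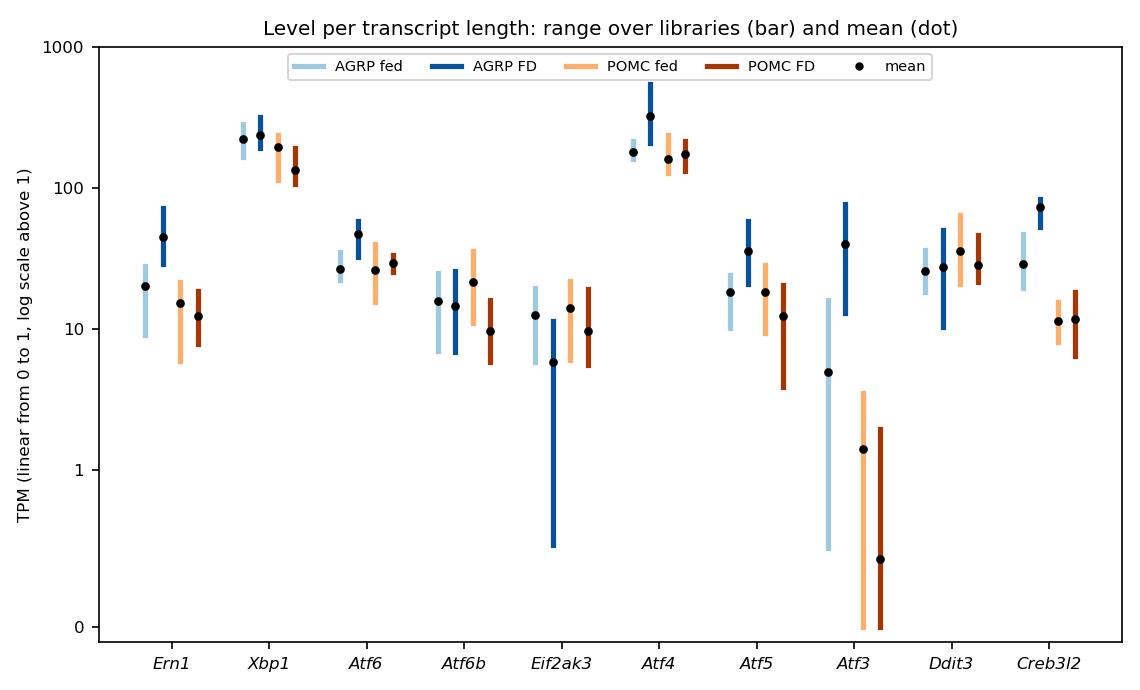
TPM (y axis, linear from 0 to 1 and on a log scale above 1) of the 10 genes (x axis) in 4 groups, with the range over libraries as a bar and the mean as a dot. *Xbp1* and *Atf4* lie highest in every group, and *Atf3* spans from 0 in POMC neurons to a mean of 40.2 TPM in FD AGRP neurons.

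Among the ER chaperone, translocation and degradation genes that are known targets of XBP1 or ATF6, 15 of 25 rose in FD AGRP neurons and none fell, with a median log2 fold change of 0.92 (0 passed with ERCC scaling). Of all tested genes 5.87% were higher there. This list, too, was chosen with earlier results of these data known, so the share is a description and not a test. *Hspa5*, the ER chaperone BiP, rose from 640 ± 91.3 (SD, n = 5) to 2092 ± 458 normalized CPM (n = 6), or 1.71 on the log2 scale (standard error 0.16, q = 1.89e-08). *Sec24d*, a subunit of the COPII coat of vesicles that leave the ER, rose by 2.06 log2 units (standard error 0.34, q = 0.000114). *Manf*, a secreted factor induced by ER stress, rose by 1.58 (standard error 0.32, q = 0.00131). The degradation genes *Herpud1*, *Edem1*, *Sel1l*, *Syvn1*, *Derl1*, *Derl2* and *Derl3* did not pass the test in AGRP neurons. Their log2 fold changes ran from −1.24 (*Derl3*) to 0.74 (*Syvn1*, q = 0.082). In POMC neurons 0 of the 25 passed the edgeR or limma-voom test, with a median log2 fold change of −0.17. There 5 had an unadjusted edgeR p under 0.05 and 2 passed by DESeq2, which called 382 of all tested genes. The interaction passed the test for 15 of the 25, all with the more positive change in AGRP neurons, beside 4.08% of all tested genes. The largest were those of *Sec61b* (2.82, standard error 0.58, q = 0.0025), *Sec24d* (2.25, q = 0.00302) and *Manf* (2.09, q = 0.00438). They include POMC changes of −1.45, −0.19 and −0.51, respectively, which did not pass the test. With ERCC scaling 0 of the 25 interactions passed. In FD mice 17 of the 25 were higher in AGRP than in POMC neurons, where 9.28% of all tested genes were higher. With ERCC scaling 9 passed, beside 1117 of all tested genes, whose median moved to 1.10. Among the 17 was the chaperone *Hyou1* at 632 ± 90.0 (SD, n = 6) against 191 ± 21.1 normalized CPM (n = 5). In fed mice 1 of the 25 was higher (*Wfs1*, log2 fold change 0.61, q = 0.0274) and 1 lower in AGRP neurons (*Sec24d*, −1.44, q = 0.00584). This is near the share of all tested genes, of which 3.33% were higher and 4.24% lower.

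Of the known ATF4 or CHOP targets, 3 of the 18 tested rose in FD AGRP neurons and none fell, beside 5.87% of all tested genes that were higher, with a median log2 fold change of 0.31. They were *Ppp1r15a*, the regulatory subunit that directs dephosphorylation of eIF2alpha (1.40, q = 0.0206), *Ddit4*, an inhibitor of mTORC1 (1.16, q = 0.0449), and *Vldlr*, a lipoprotein receptor (1.12, q = 0.00393). With limma-voom 4 and with DESeq2 5 of the 18 passed, beside 2115 and 2177 of all tested genes, higher or lower. With 1 library left out 1 to 3 passed, and with ERCC scaling 0 did. In POMC neurons 0 passed by edgeR, limma-voom or DESeq2 and 2 had an edgeR p under 0.05. *Asns*, the asparagine synthetase gene, was lower in fed AGRP than in fed POMC neurons, at 55.6 ± 16.7 against 125 ± 25.5 normalized CPM (SD, n = 5 and 5, q = 0.000742).

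Around PERK, 2 of 14 genes for eIF2 kinases, eIF2, eIF2B and the phosphatase regulators rose in FD AGRP neurons, beside 5.87% of all tested genes. They were *Ppp1r15a* and *Eif2s1*, the gene of eIF2alpha itself (log2 fold change 0.75, q = 0.0225). With 1 library left out this count lay between 0 and 3, without FD replicate 2 it was 1, and with ERCC scaling it was 0, as it was for the IRE1 relatives and partners. In POMC neurons 0 of the 14 passed by edgeR, limma-voom or DESeq2 and 0 had an edgeR p under 0.05. Around IRE1, 1 of 9 relatives and partners fell in FD AGRP neurons, beside 4.43% of all tested genes that were lower. *Map3k5*, the kinase ASK1 that acts below IRE1, went from 104 ± 12.4 (SD, n = 5) to 63.1 ± 19.9 normalized CPM (n = 6), or −0.71 on the log2 scale (q = 0.0226). The change of *Map3k5* differed between the cell types by −1.14 log2 units (standard error 0.30, q = 0.0178). Of 5 tested transcripts known to be degraded by IRE1, 0 passed in FD AGRP neurons by edgeR, limma-voom or DESeq2, and 0 had an edgeR p under 0.05.

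**Figure D4:**
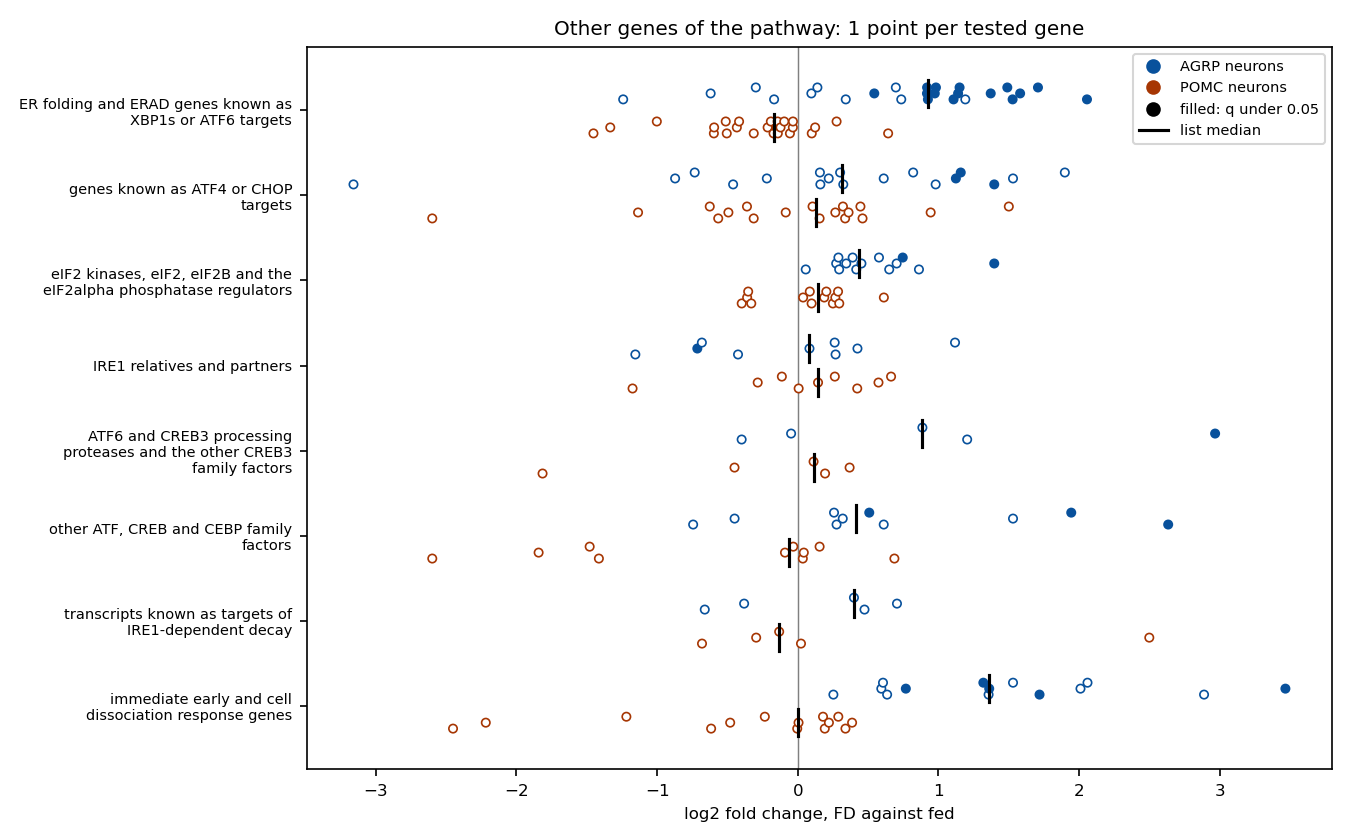
Log2 fold change of FD against fed mice (x axis) for the tested genes of 8 lists around the unfolded protein response (y axis), 1 point per gene, in AGRP neurons (blue) and POMC neurons (brown), with filled points at q under 0.05 and a black line at each list's median. In the chaperone, translocation and degradation list 15 of the 25 AGRP points are filled and the median is 0.92. No POMC point of that list is filled, and its POMC median is −0.17. The AGRP points of its degradation genes (*Herpud1*, *Edem1*, *Sel1l*, *Syvn1*, *Derl1*, *Derl2* and *Derl3*) are open. Of all tested genes 5.87% were higher in FD AGRP neurons.

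The genes whose pattern over the 21 libraries was most like that of each ER stress gene were found by Pearson correlation of log2(normalized CPM + 1), as a description, since the libraries share groups and depth. *Creb3l2* was most like *Pcdh20* (r = 0.954), *Lrrn3* (0.950) and *Fam150b* (0.949). *Atf3* was most like *Fam107b* (r = 0.955), *Sub1* (0.946) and *Cltc* (0.933). *Hid1* was among the most alike for both *Ern1* (r = 0.885) and *Atf4* (0.855). For *Ddit3* the highest value was 0.702 (*Mrpl16*) and for *Eif2ak3* 0.788 (*Cacna1c*), the lowest tops among the 10 genes.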

How the data were processed

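The members and gene lists were chosen with earlier results of these data known. The deposited counts were made by the authors with HTSeq, which assigned reads to Gencode genes without regard to strand, after trimming (cutadapt), removal of abundant sequences (Bowtie2) and STAR mapping on mm10, and they are not normalized. The authors derived the deposited TPM from these counts and the summed exon length of each gene. Amplified reads without molecular identifiers are not independent molecules, so the spread between mice was used throughout. Spike-in entries and the counting program's summary entries, 25.5% to 53.0% of counted reads, were kept apart.

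Genes above 1 CPM in at least 3 libraries (16513) were scaled by TMM and fitted in 1 edgeR 4.0.16 quasi-likelihood model of 4 groups (R 4.3.3), with two-sided tests, Benjamini-Hochberg adjustment and calls at q under 0.05. The filter and scaling follow the study, whose limma-voom test was run as an alternative. The standard error is the size of the log2 fold change over the square root of F, and intervals are at 95%. The study's criteria for differential expression also ask for a log2 change larger than 1 in size and at least 1 group averaging over 20 CPM. By them all 5 AGRP calls stood, the 1 between fed cell types and 6 of the 7 between FD cell types. Of the 5 interaction calls 4 stood, *Xbp1* at 0.953 being too small.

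Replicate numbers are those of the labels and do not mark a shared mouse. Alternatives were limma-voom (limma 3.58.1), DESeq2 1.42.0, RLE normalization, scaling by ERCC counts, no filter, a replicate block, the spike-in set as a block (and, chosen after seeing the data, with FD AGRP replicate 2 moved to the 1 µl set), the compared groups alone, for POMC neurons the 1 µl libraries alone, and each library left out. Named beside the 10 genes were, per list and comparison, up to 3 genes with q under 0.05 and the largest change among those over 20 CPM in a group, and up to 3 most alike genes. The fits were tested on simulated data, and summaries and figures were made in Python 3.11.15. Of 200 genes changed in the simulation, in equal numbers by 2-fold and 4-fold, edgeR called 32 and 82, respectively. Most 2-fold changes were thus missed, so a gene that did not pass may still have changed. Gene positions are those of the files, counted from 1. *Cebpd*, in one list, was not analysed here.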

Additional observations from a re-analysis of the deposited data

Results flagged for a closer look

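For 5 genes the change with food deprivation differed between AGRP and POMC neurons by the interaction test, and each is repeated with its value: *Ern1* 1.89, *Xbp1* 0.953, *Atf3* 5.01, *Atf4* 1.15 and *Creb3l2* 1.67 log2 units, the AGRP change less the POMC change.

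A library far from the others of its group was found in 4 of 40 combinations of gene and group. Chance alone gives about 1 in 20 for normally distributed values. Normalized CPM of low counts need not follow that distribution, so the rate is a rough guide. *Atf3* in fed AGRP replicate 5 stood at 9.96 normalized CPM, the nearest being 1.94. *Atf3* in FD POMC replicate 3 stood at 1.27, with the nearest at 0.0725. *Atf4* in fed POMC replicate 2 stood at 143.9 normalized CPM, the nearest being 86.3. *Ddit3* in FD POMC replicate 3 stood at 12.3, with the nearest at 7.16.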

How the results depend on the processing

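Scaling by ERCC counts changed most. Its library factors were 0.240 to 4.08 times those of TMM. They were 2.26 to 4.08 with 10 µl of spike-in, 0.716 to 1.38 with 1 µl and 0.240 to 0.741 with the proportional volume. ERCC scaling moved the median over all tested genes to −0.08 in AGRP FD against fed and −1.11 in POMC FD against fed. The median came to 0.082 between fed cell types, 1.10 between FD cell types and 1.04 for the interaction. With it 0 members passed in AGRP neurons (97 genes in all did) and 0 between fed cell types (297 in all). Between FD cell types 4 passed (1117 in all), and for the interaction 0 (119 in all). The 5 genes that rose in AGRP neurons stayed higher, at 1.17 (*Ern1*), 1.04 (*Atf6*), 1.91 (*Atf3*), 0.87 (*Atf4*) and 1.35 (*Creb3l2*). It turned *Atf6b* to −0.069 and *Ddit3* to −0.60 in AGRP, *Atf6* to −0.95 in POMC neurons, *Atf6* to 0.011 between fed cell types, *Eif2ak3* to 0.60 between FD cell types and *Eif2ak3* to 1.14 in the interaction. The cause was not tested.

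The numbers of members called in AGRP neurons (5) and between FD cell types (7) stayed within 1.5 times under the other settings, from 5 to 6 and from 6 to 7. Leaving out 1 library at a time gave 4 to 5 and 7 to 7, 0 to 0 in POMC neurons, 1 to 1 between fed cell types and 2 to 6 for the interaction, the lowest being without fed AGRP replicate 3 or 4 or FD POMC replicate 2. For the interaction DESeq2 gave 7 and limma-voom 4, beside 1596 and 1181 of all tested genes.

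Changes of sign touched only values that had not passed the test. In POMC neurons *Atf4* turned to 0.0028 with DESeq2, 0.0027 with RLE, 0.023 with the replicate block, 0.11 with the spike-in set as a block (0.035 with FD AGRP replicate 2 moved to the 1 µl set) and 0.034 with the 1 µl libraries alone, where *Ern1* came to 0.038 and *Atf6* to −0.21. The spike-in block put *Xbp1* at −0.015 between fed cell types, or at −0.012 with that library moved. Leaving out 1 library gave, in AGRP neurons, −0.074 to 0.35 for *Atf6b*. In POMC neurons it gave −0.050 to 0.24 for *Atf6*, −0.11 to 0.22 for *Atf4* and −0.29 to 0.10 for *Creb3l2*. Between fed cell types it gave −0.032 to 0.37 for *Ern1*, −0.052 to 0.16 for *Xbp1*, −0.25 to 0.037 for *Atf6* and −0.13 to 0.19 for *Atf4*. Between FD cell types *Ddit3* ran from −0.18 to 0.41, and in the interaction *Eif2ak3* ran from −0.46 to 0.20.

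Same-numbered samples did not deviate together (correlations −0.19 to 0.12). A replicate block left 5 members called in AGRP neurons, took the interaction of *Atf3* to q = 0.064 with edgeR, and put *Ddit3* at −0.042 between FD cell types and *Eif2ak3* at 0.0068 in the interaction. *Atf3* lay near the floor in POMC neurons, where 6 of the 10 libraries held at most 3 counts.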

Other observations

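Other bZIP factors were followed beside the ER stress genes. Of 10 tested ATF, CREB and CEBP relatives, 3 rose in FD AGRP neurons and none fell (0 passed with ERCC scaling), beside 5.87% of all tested genes that were higher. In POMC neurons 0 passed the edgeR or limma-voom test, 3 had an edgeR p under 0.05 and 2 passed by DESeq2. DESeq2 called 382 of all tested genes there. *Nfil3*, a repressor known from circadian and immune cells, went from 5.33 ± 2.86 (SD, n = 5) to 33.1 ± 13.3 normalized CPM (n = 6), or 2.63 on the log2 scale (standard error 0.54, q = 0.00133). *Crem*, a cAMP-responsive modulator, went from 16.9 ± 7.74 (SD, n = 5) to 64.9 ± 26.3 (n = 6), or 1.94 on the log2 scale (standard error 0.38, q = 0.000896). *Atf2* changed by 0.51 (q = 0.0183). The interaction was 4.48 log2 units for *Nfil3* (q = 0.000284) and 3.36 for *Crem* (q = 0.000172). It includes POMC changes of −1.84 for *Nfil3* (edgeR q = 0.112) and −1.41 for *Crem* (edgeR q = 0.0905). With ERCC scaling the q of the interaction was 0.0161 for *Nfil3* and 0.0661 for *Crem*.

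*Creb3l1*, the relative of *Creb3l2* known as OASIS, differed from it in the fed state. It was lower in fed AGRP than in fed POMC neurons, at 1.81 ± 1.55 against 22.2 ± 9.29 normalized CPM (SD, n = 5 and 5, edgeR q = 8.26e-05), whereas *Creb3l2* was higher. In FD AGRP neurons *Creb3l1* rose to 14.2 ± 6.79 (SD, n = 6), or 2.97 on the log2 scale (standard error 0.57, q = 0.000722), and with ERCC scaling the change was 3.16 at q = 0.118. Its change differed between the cell types by 4.78 log2 units (standard error 0.79, q = 0.000211), which includes a POMC change of −1.81 (edgeR q = 0.134). *Col6a1*, a collagen gene whose transcript IRE1 is known to cleave, stood far higher in AGRP neurons, at 14.4 ± 7.96 normalized CPM in fed AGRP and 0.0736 ± 0.116 in fed POMC neurons (SD, n = 5 and 5), and it did not pass the test between FD and fed mice in either cell type.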
